A study of Mus musculus with 2 samples.

Results

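Retinoic acid is made from vitamin A (retinol) inside cells and acts on gene expression, so where it can act depends on which cells make it, which take it up and which destroy it. Retinol is carried in blood by the retinol-binding protein Rbp4 and enters cells through the receptor Stra6. Retinol dehydrogenases oxidise it to retinaldehyde, and the retinaldehyde dehydrogenases Aldh1a1, Aldh1a2 and Aldh1a3 make retinoic acid from that. Crabp2 carries retinoic acid towards the nucleus, where receptors of the RAR and RXR families, Rarb among them, bind it on DNA. Cytochrome P450 enzymes of the Cyp26 family, of which Cyp26b1 is a main brain form, oxidise it for removal. In adult brain the meninges are a known place of retinoic acid synthesis.

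These 7 genes, Aldh1a1, Aldh1a2, Rbp4, Stra6, Crabp2, Cyp26b1 and Rarb, were followed among the 19070 genes counted in 2 brain sections after controlled cortical impact (CCI), a piston blow to the exposed cortex of a single hemisphere. They were taken by their symbols. Cyp26b1 was chosen by its measured values, because its level in the lesion relative to the opposite side was higher at 28 days than at 3 days in earlier results of the same sections, and the others because they act in the same pathway, with those results known. The change of Cyp26b1 with time is therefore given as a description. A wider list of 62 genes of retinoid synthesis, storage, transport, breakdown, receptors, receptor partners and retinoid-responsive genes, of which 60 were in the data, gives the surroundings.

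Both sections came from male mice aged 3 months, labelled C57Bl6 and named C57BL/6 J in the methods. For the impact they had ketamine and medetomidine anaesthesia, buprenorphine, local bupivacaine and removal of a bone flap, and the labels call them untreated. They gave 1 section taken 3 days (3 days CCI) and 1 taken 28 days (28 days CCI) after the impact. Sham-operated brain was not analysed here. Expression was measured with Visium HD on fixed, paraffin-embedded tissue, in which probes for each gene are counted as unique molecular identifiers (UMIs) on a grid, here in bins of 16 µm. Each bin covers little tissue yet may overlap more than one cell, so bins are regions and not cells. With 1 section per time, no difference has a replicate check and none was tested. The 95% intervals in parentheses cover counting error only. Probes differ between genes, so levels were compared between places for the same gene and not between genes. Fewer cells of a type and less RNA per cell cannot be told apart in such bins.

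The 3 days section held 121967 bins with 120615873 UMIs and the 28 days section 105589 bins with 82422389 UMIs. The injured side was the side below array column 130 at 3 days and below column 240 at 28 days. The capture area reached 2.08 mm into the injured side at 3 days and 3.84 mm at 28 days, so less of the injured hemisphere was captured at 3 days. A lesion zone was drawn where 6 phagocyte genes (Cd68, Lyz2, Ctsz, Lgals3, Cd52 and Laptm5) were high, and held 8506 bins at 3 days and 13559 bins at 28 days. Its reflection across the midline, the mirrored area, held 7855 and 11747 bins. The zone was shallower than its reflection. Its bins averaged 607 UMIs at 3 days, where the reflection averaged 927, and 528 at 28 days, where it averaged 628. Levels are UMIs per 1000000 UMIs of the same area (CPM).

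The lesion zone and the mirrored area did not hold the same structures. Each bin was assigned to 1 of 16 marker gene lists where that list was at least 2-fold enriched around it. None of the lists held a gene of the retinoid list, and each led some bins in both sections. At 3 days the mirrored area had 634 bins led by the list for CA3, a field of hippocampal pyramidal cells, and they carried 21.4% of its UMIs, while the lesion zone had 0 and the rest of the injured side 3. The opposite side as a whole had 896. Bins led by the striatum list numbered 605 in the lesion zone and 0 in the mirrored area at 3 days, but 412 and 1125 at 28 days. Bins led by the fibroblast and meninges list were more numerous in the lesion zone at both times, with 333 against 129 and 326 against 14. Loss of tissue, a shift of tissue and an oblique section plane cannot be told apart here, and the ratios that moved most with these bins are given with and without them.

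The lesion zone lacked the dense Cyp26b1 signal of its counterpart at 3 days and had a low level of its own at both times. Cyp26b1 had 26 UMIs in the lesion zone at 3 days, which is 5.04 CPM (3.29 to 7.38), against 932 UMIs in the mirrored area, 128 CPM (120 to 136). In the 28 days section it had 112 UMIs and 15.6 CPM (12.9 to 18.8) in the lesion zone, against 99 UMIs and 13.4 CPM (10.9 to 16.3) in the mirrored area. The log2 ratio of lesion over mirrored area was thus -4.64 (-5.29 to -4.11) in the earlier section and 0.22 (-0.18 to 0.63) in the later one. Both terms contributed to that difference of 4.86. The level in the lesion zone was higher at 28 days by 1.61 on the log2 scale (1.01 to 2.31), and the level in the mirrored area was lower, with a log2 difference of -3.25.

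**Figure D1:**
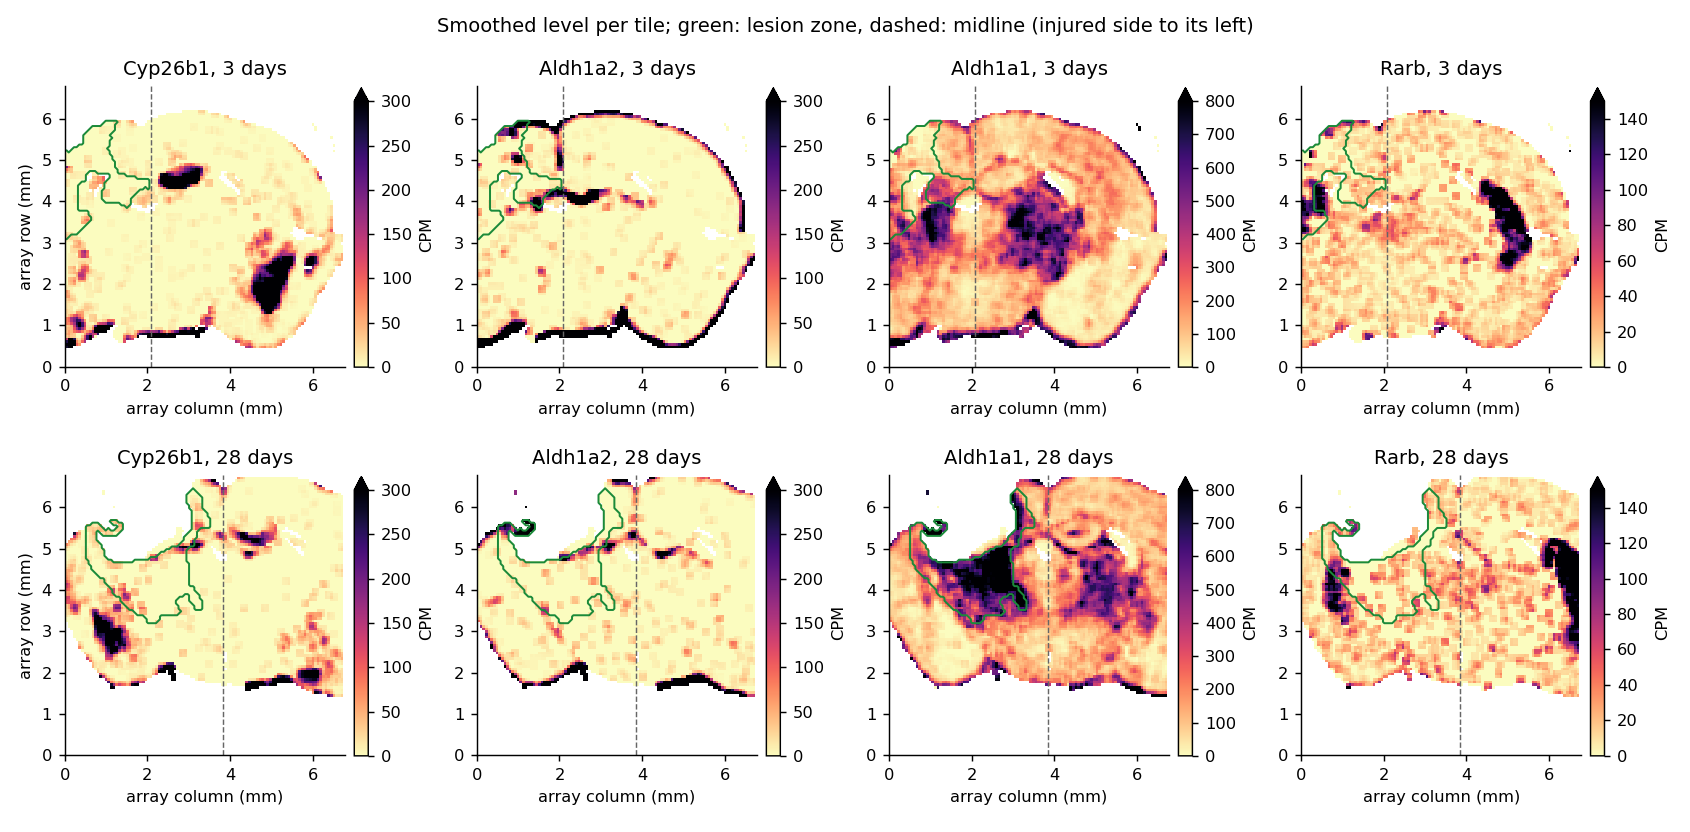
Smoothed levels of Cyp26b1, Aldh1a2, Aldh1a1 and Rarb in CPM, averaged over 3 by 3 tiles of 64 µm, in the 3 days section (top) and the 28 days section (bottom), with the lesion zone outlined in green and the midline dashed. Axes are positions on the array in mm with the injured side on the left. The dense Cyp26b1 areas lie outside the zone except for a small one at 28 days, and Aldh1a2 follows the outer surface and parts of the zone.

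Much of that mirrored area signal lay in CA3-led bins. CA3-led bins held Cyp26b1 at 441 CPM in the 3 days section and 224 CPM in the 28 days section, or 22.5% and 11.2% of all its UMIs. When these bins were left out of both zones, the levels were 5.04 against 26.4 CPM at 3 days, a log2 difference of -2.37 (-3.05 to -1.78), and 15 against 3.64 CPM at 28 days, a log2 difference of 2.02 (1.41 to 2.72). The order of the times, by which Cyp26b1 was chosen, was the same with and without CA3-led bins and is a description. Which side was higher at 28 days depended on the reference, because against the whole opposite side the log2 ratio was -0.68 there and -3.18 at 3 days.

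Dense areas of Cyp26b1 were found by smoothing the map and keeping connected patches of at least 25 tiles at 100 CPM or more. At 3 days there were 6, of which 2 were on the injured side, and none overlapped the lesion zone. The widest, on the opposite side 2.93 mm from the midline, had 1890 UMIs at 392 CPM, which is 42.0% of all Cyp26b1 UMIs of the section. The amygdala and piriform list and the cortical layer 5 list were the most enriched lists in it. That far from the midline the injured side was not captured at 3 days. The next, at 380 CPM, lay on the CA3 field of the opposite side and held 26.1% of the section's UMIs, and 71.4% of its bins were in the mirrored area. A further pair of patches, 1 on each side, had 412 and 407 CPM and were led by fibroblast bins.

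At 28 days there were 5 dense patches of Cyp26b1, 3 of them on the injured side. Where both sides were captured, a wide patch was present on each, 502 UMIs at 288 CPM on the injured side, 2.77 mm from the midline, and 525 UMIs at 296 CPM on the opposite side, 1.89 mm from it. The CA3 patch was again on the opposite side, with 275 UMIs at 218 CPM. A small patch of 28 tiles at the edge of the lesion zone, with 49.3% of its bins inside it, reached 333 CPM, but on 36 UMIs. The fibroblast list was the most enriched there, by 3.07 on the log2 scale. This was the one dense patch at either time with bins in the lesion zone.

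Fibroblast-led bins away from the lesion also held Cyp26b1, and those inside it held less. On the opposite side they had 226 UMIs, 131 CPM, at 3 days, while the 333 such bins of the lesion zone had 0 UMIs, a level that 3 counts would put at 11.3 CPM, so it was at least 11.6-fold lower. At 28 days they had 345 CPM on the opposite side and 56.5 CPM in the zone, from 20 UMIs, a log2 difference of -2.58 (-3.36 to -1.93). Striatum-led bins at 3 days had 0 UMIs of Cyp26b1 in the zone and 193 UMIs, 56.4 CPM, on the opposite side, at least 11.7-fold lower. Striatum-led bins of the whole injured side had 1 UMI in that section, 0.807 CPM, so the low level was not particular to the zone. At 28 days striatum-led bins had 16 CPM on the injured side against 3.36 CPM opposite, from 21 and 11 UMIs. That was higher on the injured side, by 2.22 (1.13 to 3.45) on the log2 scale. In bins led by the white matter list the level was 5.71 against 13.3 CPM at 3 days and 16.5 against 11.7 CPM at 28 days, where the interval of the log2 ratio, 0.51, reached from -0.28 to 1.25. Cyp26b1 was therefore lower in the zone within each of these bin types at 3 days, and at 28 days lower within fibroblast-led bins, with no difference beyond counting error within white matter. In zone bins led by no list it was also lower, at 7.29 against 40.6 CPM at 3 days and 11.6 against 23.3 CPM at 28 days, -0.99 (-1.48 to -0.57). Such bins are not matched for place. The widest dense patch opposite at 3 days had 3141 of its 4176 bins led by no list, and the injured side was not captured that far out. The wide patch opposite at 28 days had 812 of 1528.

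The zone bins that held a Cyp26b1 UMI differed between the times in the level of the fibroblast list, the 1 list compared at both times. At 3 days there were 25 such bins, in which the fibroblast list was at -0.52 (-1.54 to 0.22) on the log2 scale relative to zone bins without one, on 12 UMIs of the list. The choroid plexus list was 2.81 (1.98 to 3.46) higher in them, on 17 UMIs of the list, and the inhibitory neuron list 1.13 (0.42 to 1.70) higher, on 22. The microglia and macrophage list was at -2.04 (-3.05 to -1.29) in them, on 12. At 28 days there were 99, and the fibroblast list was 1.96 (1.78 to 2.14) higher in them than in the rest. Opposite-side bins with a Cyp26b1 UMI also had the fibroblast list higher at 3 days, by 0.74 (0.67 to 0.81). By distance, Cyp26b1 at 28 days was 10.1 CPM deeper than 250 µm inside the zone, 18.9 CPM in the outer 250 µm of it and 12.9 CPM in the first 250 µm outside, where the mirror positions had 2.92, 20.9 and 33.2 CPM. It was 70.5 CPM at 500 to 1000 µm from the edge and 28.7 CPM at 1000 to 2000 µm, against 10.7 and 82.2 CPM at the mirror positions, so neither side was higher throughout. At 3 days no band of the injured side exceeded 12.1 CPM, while the mirror of the outer 250 µm of the zone had 160 CPM. Its map was not closely followed by that of any other gene, and the most similar, Tsc22d1, Trp53i11 and Tmem64, reached a mean Pearson r of 0.38, 0.35 and 0.33 over wide tiles. None of the 3 was among the most similar with smaller tiles.

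Whole sides were compared as well. Cyp26b1 had 17.1 CPM over all bins of the injured side against 46.5 CPM opposite at 3 days, when the outer injured hemisphere was not captured, and 30.6 against 25.2 CPM at 28 days. Aldh1a2 had 61 against 31.8 CPM and then 29.7 against 19.1 CPM, Stra6 25.1 against 12.7 CPM and then 15.5 against 10.9 CPM, and Aldh1a1 194 against 157 CPM and then 217 against 174 CPM. These 3 were higher on the injured side in both sections, and the unequal capture at 3 days applies to them too. At 3 days choroid plexus bins were 2.76% of the injured side outside the zone and 0.414% of the opposite side. They held 361 of the 942 Stra6 UMIs of the injured side and 126 of the 1050 opposite. The part of unequal anatomy in these side differences was not tested. Rarb, at 20.9 against 19.7 CPM, was nearly even at 3 days and lower on the injured side at 28 days, at 20.3 against 27.2 CPM. Rbp4 was at 14.5 against 18.1 CPM and 16.6 against 15.4 CPM, and Crabp2 at 10.8 against 11 CPM and 7.25 against 6.26 CPM.

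**Figure D2:**
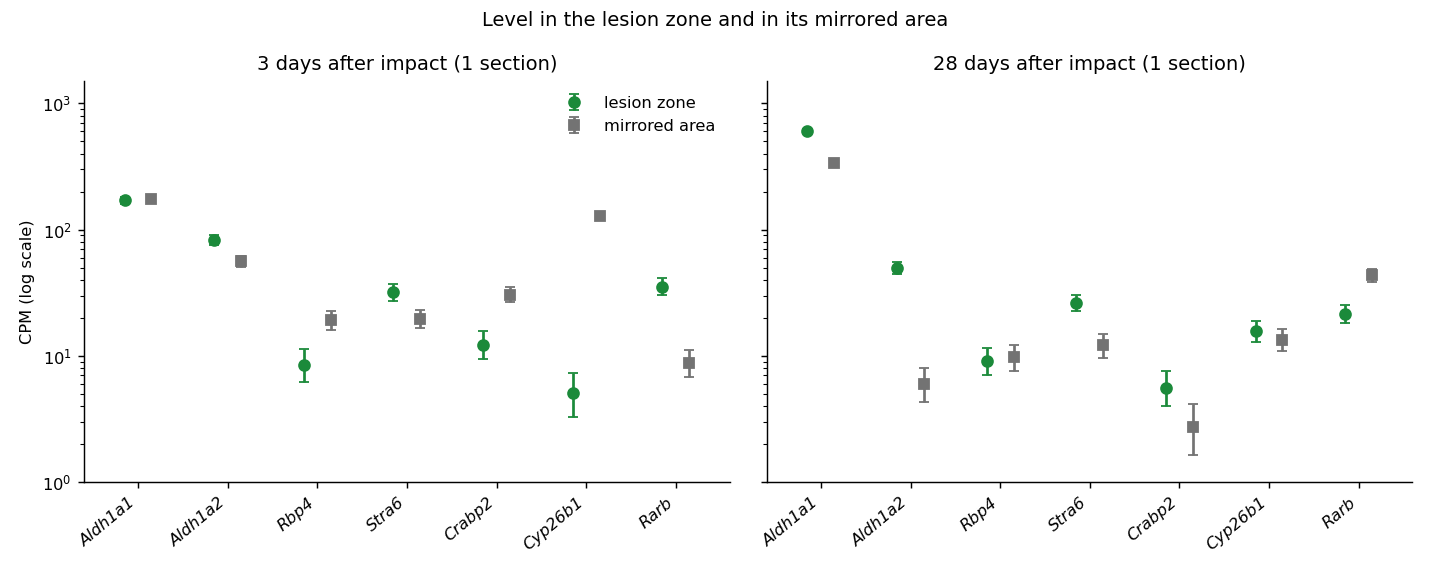
Levels in CPM on a log axis of the 7 genes in the lesion zone (green circles) and the mirrored area (grey squares) at 3 and 28 days, with 95% Poisson intervals that cover counting error. Cyp26b1 has the widest gap at 3 days, with 5.04 against 128 CPM, and Aldh1a2 the widest at 28 days, with 49.5 against 5.96 CPM.

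Among the synthesis enzymes, Aldh1a1 was about equal in both zones at 3 days and higher in the lesion zone at 28 days. It had 879 UMIs and 170 CPM (159 to 182) in the lesion zone against 1273 UMIs and 175 CPM (165 to 185) in the mirrored area at 3 days, a log2 difference of -0.04 (-0.16 to 0.09), or -0.30 (-0.43 to -0.18) without CA3-led bins and -0.65 per bin in place of per UMI. At 28 days it had 4332 UMIs and 605 CPM (587 to 624) against 2500 UMIs and 339 CPM (326 to 352), a log2 difference of 0.84 (0.77 to 0.91). At 28 days it was 721 CPM deeper than 250 µm inside, 537 CPM in the outer 250 µm, 216 CPM in the first 250 µm outside and 136 CPM from 250 to 500 µm, while the mirror positions of the same bands had 400, 295, 209 and 194 CPM. At 3 days the same bands had 159, 173, 181 and 302 CPM, and their mirror positions 127, 190, 321 and 327 CPM.

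The 28 days difference of Aldh1a1 was also present within several bin types, which were not matched for place. White matter bins had 591 CPM inside the lesion zone against 332 CPM opposite, a log2 difference of 0.83 (0.70 to 0.96) over 4943 and 10291 bins. Thalamus-led bins had 745 against 352 CPM, 1.08 (0.91 to 1.25), and striatum-led bins 237 against 92.5 CPM, 1.37 (0.96 to 1.74). In ependyma-led bins, those of the ventricle lining, it was 509 against 179 CPM. Endothelium-led bins did not differ beyond counting error, with 0.40 (-0.06 to 0.84). At 3 days the white matter ratio was -0.60 (-0.74 to -0.45), with 242 against 366 CPM, and the striatum ratio 0.10. So Aldh1a1 was lower in white matter of the lesion zone at 3 days and higher there at 28 days, each relative to the opposite side of its own section. Fibroblast-led bins had the same order, with 151 CPM in the zone against 634 CPM opposite at 3 days, -2.06 (-2.57 to -1.62), and 763 against 610 CPM at 28 days, 0.32 (0.08 to 0.57). Zone bins led by no list held 2432 of the UMIs at 28 days, at 625 against 147 CPM, 2.09 (2.02 to 2.17). The whole injured side, zone included, was at -0.05 (-0.17 to 0.07) in thalamus-led bins at 28 days. Its striatum-led bins were at 0.91 (0.66 to 1.17) and its white matter bins at 0.62 (0.50 to 0.74).

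Over the whole section Aldh1a1 was highest in fibroblast-led bins, at 578 and 649 CPM, and was also high in thalamus bins, at 392 and 348 CPM, white matter, at 327 and 408 CPM, and endothelium bins, at 308 and 419 CPM. It was lowest in choroid plexus bins, at 12.0 and 9.68 CPM. Astrocyte markers as a sum were higher in the lesion zone at both times. The 8 genes of the astrocyte list summed to 6292 CPM inside the lesion zone against 3693 CPM in its mirrored area at 3 days, and to 12217 and 3556 CPM at 28 days. At 3 days 3 of the 8 were at least 2-fold higher, beside 17.0% of all genes, and at 28 days 7 of the 8, beside 16.4%. The maps of S100b and Aqp4, both expressed by astrocytes, were most like that of Aldh1a1 over 501 and 455 wide tiles, with mean Pearson r of 0.64 and 0.63. The part of astrocyte number or density in the Aldh1a1 level was not tested. Within the zone, bins with an Aldh1a1 UMI had the astrocyte list 0.40 and 0.20 higher and the fibroblast list 0.54 and 1.27 higher on the log2 scale than bins without one.

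Aldh1a2, the synthesis enzyme of the meninges, was concentrated in fibroblast-led bins. They held it at 1323 CPM at 3 days and 931 CPM at 28 days, or 78.6% and 65.8% of all its UMIs, in 3.41% and 2.05% of the bins. Endothelium-led bins followed at 137 and 133 CPM. In the lesion zone it had 427 UMIs and 82.7 CPM (75.0 to 90.9) at 3 days, against 410 UMIs and 56.3 CPM (51.0 to 62.0) in the mirrored area, a log2 difference of 0.56 (0.36 to 0.75), which over 13 other settings ranged from -0.06, per bin in place of per UMI, to 4.72, with a fitted symmetry axis or the midline moved 24 columns higher. By 28 days the gene had 354 UMIs and 49.5 CPM (44.4 to 54.9) against 44 UMIs and 5.96 CPM (4.33 to 8), a log2 difference of 3.04 (2.60 to 3.54).

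The ratio of Aldh1a2 moved with the number of fibroblast-led bins in each zone. Without those bins it was 0.30 (-0.11 to 0.70) in the earlier section and 1.41 (0.89 to 1.96) in the later, so at 3 days it no longer differed beyond counting error. The fibroblast list itself was at 795 against 237 CPM and 726 against 150 CPM in the zones, with 7 and then 10 of its 11 genes at least 2-fold higher and none at 0. Within fibroblast-led bins the level of the enzyme was not higher in the lesion zone. Such bins had 1249 CPM in the zone against 1204 CPM opposite at 3 days, 0.05 (-0.12 to 0.22), and 701 against 1243 CPM at 28 days, -0.82 (-1.05 to -0.61). Over the whole injured side they were higher than opposite at 3 days, at 1492 against 1204 CPM, 0.31 (0.22 to 0.40). At 28 days the whole side was lower, at 779 against 1243 CPM, -0.67 (-0.83 to -0.51). Inside the zone, bins with an Aldh1a2 UMI had the fibroblast list 4.49 and 4.47 higher on the log2 scale than bins without one. Its map was most like those of Col1a1, a fibrillar collagen, Slc6a13 and Itih2, with r of 0.73, 0.72 and 0.72.

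Aldh1a2 was also compared by depth inside the zone. At 3 days it was 94.5 CPM in the outer 250 µm and 41.2 CPM deeper, with 73.6 and 0.579 CPM at the mirror positions, which had the same order. At 28 days it was 78.1 CPM deeper than 250 µm and 32.5 CPM in the outer 250 µm, with 5.84 and 6.05 CPM at the mirror positions. The fibroblast list had the same order at 28 days, 1231 CPM deep and 426 CPM in the outer band, but at 3 days it had 880 CPM deep and 771 CPM in the outer band.

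**Figure D3:**
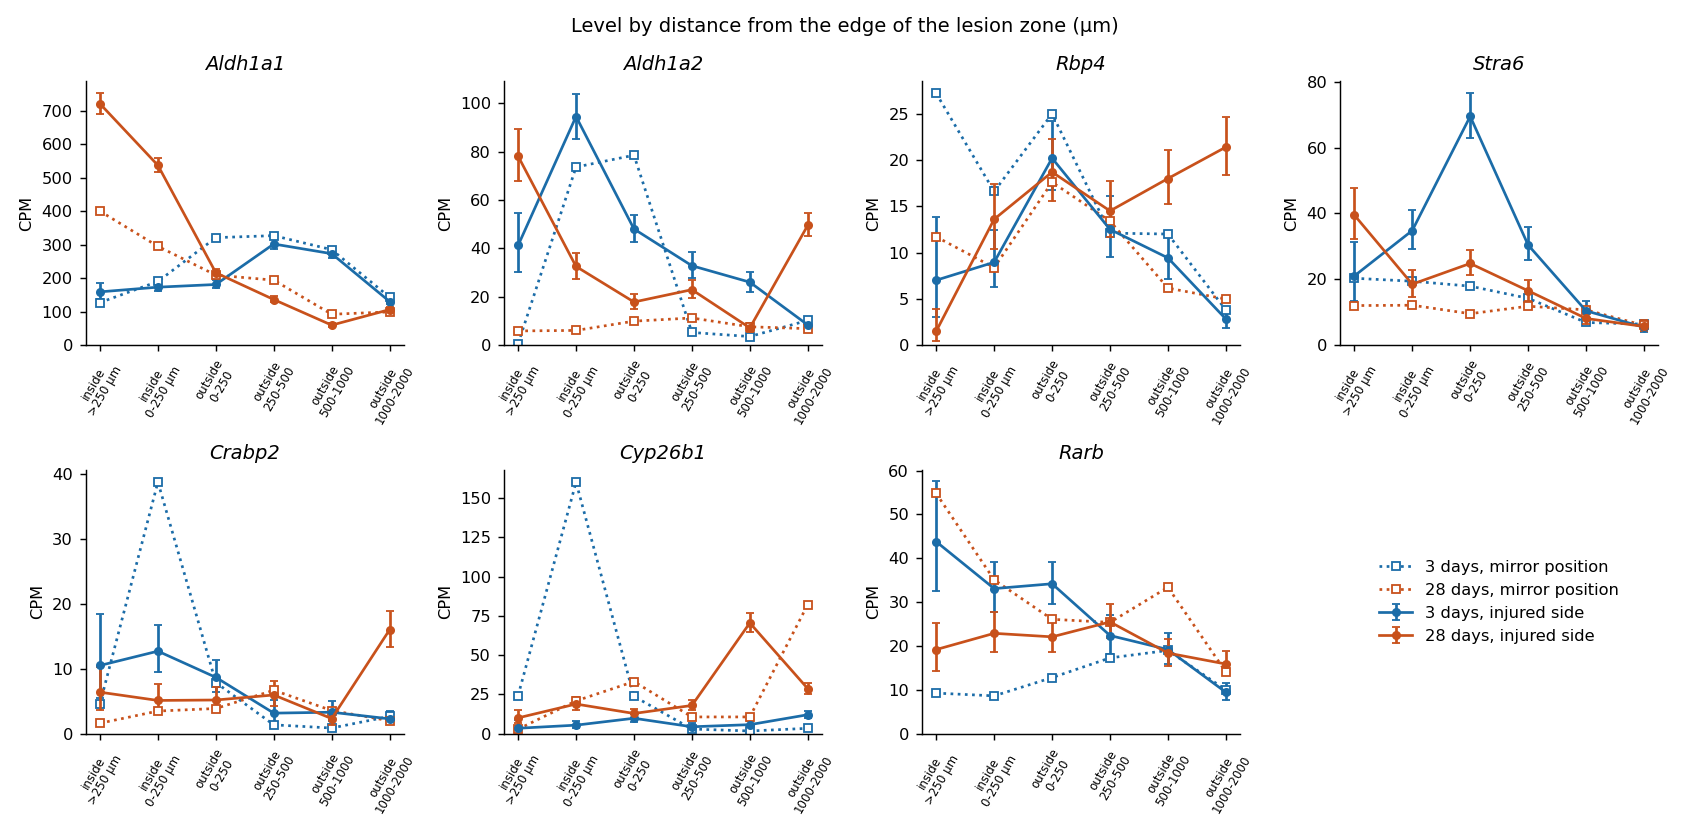
Levels in CPM of the 7 genes by distance from the edge of the lesion zone, inside and outside it, on the injured side (solid) and at the mirror position (dotted), at 3 and 28 days. Aldh1a1 at 28 days is highest deep inside the zone, at 721 CPM, and Stra6 at 3 days is highest in the first 250 µm outside it, at 69.5 CPM.

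Of the transport genes, Stra6, the cell surface receptor that takes up retinol from Rbp4, was at both times higher in the lesion zone. It had 164 UMIs and 31.8 CPM (27.1 to 37.0) against 143 UMIs and 19.6 CPM (16.5 to 23.1) at 3 days, a log2 difference of 0.69 (0.36 to 1.03), which turned to -0.18 with the midline moved 24 columns lower. The 28 days section gave 188 UMIs and 26.3 CPM (22.6 to 30.3) against 89 UMIs and 12.1 CPM (9.68 to 14.8), 1.12 (0.75 to 1.5). Without fibroblast-led bins the log2 ratios were -0.68 (-1.15 to -0.24) and 0.31 (-0.11 to 0.74). Choroid plexus bins went the other way, with 14 in the zone and 88 in the mirrored area at 3 days, and 0 and 37 at 28 days. Without them Stra6 had 31.5 against 15.7 CPM at 3 days and 26.3 against 9.43 CPM at 28 days. Zone bins led by no list were also higher than those opposite at 28 days, at 14.1 against 5.93 CPM, 1.26 (0.78 to 1.71). The 28 days difference was therefore not confined to fibroblast-led bins.

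Stra6 was also higher in the lesion when fibroblast-led bins alone were compared. Such bins had 391 CPM in the zone against 196 CPM opposite at 3 days, 1.01 (0.67 to 1.32), and 246 against 57.1 CPM at 28 days, 2.09 (1.46 to 2.80). At 3 days its highest band was the first 250 µm outside the zone, with 69.5 CPM against 17.9 CPM at the mirror position. The fibroblast list was at 1046 against 258 CPM there. Choroid plexus bins of the injured side held 361 Stra6 UMIs at 3 days, and 845 of these 859 bins lay outside the zone. Fibroblast-led bins of that side held 279, of which 104 were in the zone. The bin types within the band were not separated. In choroid plexus bins, which carry retinol from blood to cerebrospinal fluid and had Stra6 at 244 and 215 CPM over the section, the injured and opposite sides had 245 and 244 CPM at 3 days and 204 and 231 CPM at 28 days. The log2 difference there was within counting error at both times, 0.00 and -0.18 (-0.50 to 0.14). Its closest map was that of the choroid plexus gene Kcnj13, with r of 0.50, followed by Ecrg4 and Aldh2 at 0.47 and 0.46.

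Rbp4, which carries retinol outside cells, was lower in the lesion zone at 3 days. It had 44 UMIs and 8.52 CPM (6.19 to 11.4) against 139 UMIs and 19.1 CPM (16 to 22.5), a log2 difference of -1.15 (-1.69 to -0.66), which turned to 0.50 when the zone was drawn wider. Its 28 days values were 65 and 72 UMIs, 9.08 and 9.75 CPM, -0.10 (-0.61 to 0.40), or 0.28 with the wider zone, -1.04 with the midline moved 24 columns higher, 0.56 (-0.03 to 1.19) without striatum-led bins and -0.65 (-1.25 to -0.09) without fibroblast-led bins, so its direction at 28 days was not settled. Over the section, 56.2% and 62.1% of its UMIs lay in bins led by no list, and its highest level was in fibroblast-led bins, at 171 and 129 CPM. Those of the lesion zone had less of it, with 2 UMIs and 7.53 CPM against 260 UMIs and 151 CPM opposite at 3 days, -4.01 (-7.38 to -2.46), and 65.0 against 180 CPM at 28 days. At 28 days it was 1.5 CPM deeper than 250 µm inside the zone and 13.6 CPM in the outer band, against 11.7 and 8.37 CPM at the mirror positions. The most similar maps were those of Igfbp6, Sstr4 and Fhl2, with r of 0.51, 0.47 and 0.45.

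Crabp2, which delivers retinoic acid to its receptors, was lower in the lesion zone at 3 days and higher at 28 days, with few UMIs. It had 63 UMIs and 12.2 CPM (9.38 to 15.6) against 223 UMIs and 30.6 CPM (26.7 to 34.9) at 3 days, -1.32 (-1.75 to -0.92). The later section gave 40 and 20 UMIs, 5.59 and 2.71 CPM, 1.03 (0.24 to 1.90). Against the whole opposite side both signs turned, to 0.16 and -0.15. The 3 days difference lay in the CA3 field, where CA3-led bins had Crabp2 at 85.6 CPM in the 3 days section and at 2.63 CPM in the 28 days section, and without them the log2 ratio was 0.19 (-0.34 to 0.73). The 28 days difference lay in fibroblast-led bins, and without them it was 0.12. These bins had 61.3% and 54.0% of all Crabp2 UMIs.

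Within fibroblast-led bins Crabp2 was lower in the lesion zone, at 79.0 against 308 CPM at 3 days, a log2 difference of -1.93 (-2.67 to -1.34), and 56.5 against 316 CPM at 28 days, -2.45 (-3.24 to -1.80). Bins led by no list went the other way at 3 days, with 16.6 against 2.04 CPM, 3.04 (2.33 to 3.66), from 25 and 103 UMIs. At 28 days they had 2.31 against 3.15 CPM, -0.37 (-1.63 to 0.55). At both times Crabp2, Cyp26b1 and Rbp4 were lower in fibroblast-led bins of the lesion than in those opposite, and Stra6 was higher. Fibroblast-led bins of the whole injured side differed from this at 3 days, when Cyp26b1 had 206 against 131 CPM, 0.64 (0.38 to 0.91), and Rbp4 200 against 151 CPM, 0.40 (0.14 to 0.66), while Crabp2 was at -0.41 and Stra6 at 0.24. At 28 days the whole side had the direction of the zone for each, with Crabp2 at -0.94, Cyp26b1 at -0.88, Rbp4 at -0.80 and Stra6 at 1.29. The genes whose maps were most like that of Crabp2 were Myoc, Fmod and Ranbp3l, with r of 0.63, 0.62 and 0.62. Fibroblast-led bins were not matched for lying at the surface, along vessels or in the lesion core, and the part of that in these differences was not tested.

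**Figure D4:**
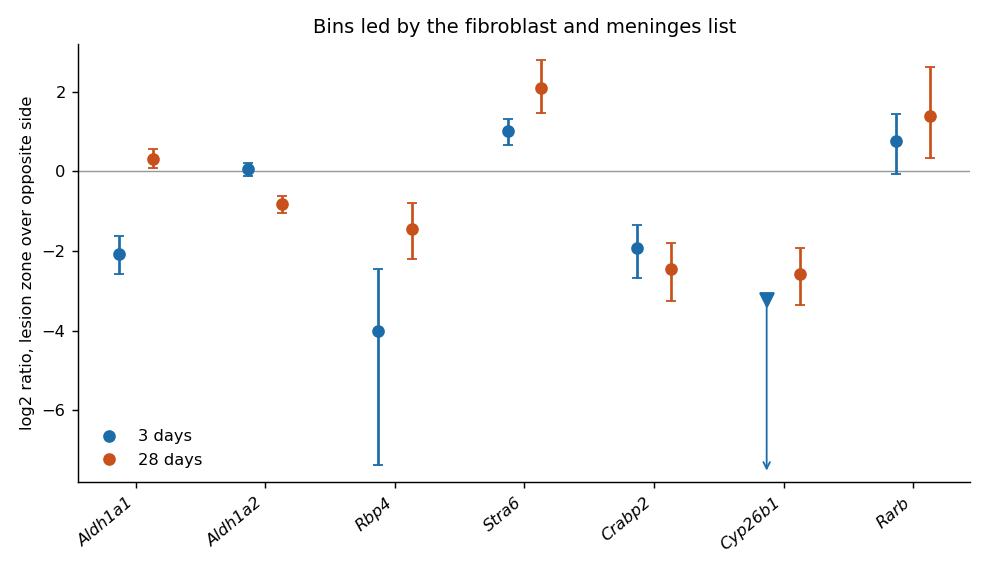
Log2 ratio of the level in fibroblast-led bins of the lesion zone over fibroblast-led bins of the opposite side for the 7 genes at 3 and 28 days, with 95% intervals for counting error. Cyp26b1 at 3 days had 0 UMIs in the zone and is drawn as an upper limit with an arrow. Stra6 lies above 0 at both times, at 1.01 and 2.09, and Crabp2, Rbp4 and Cyp26b1 lie below it.

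Rarb, a retinoic acid receptor whose own gene is induced by retinoic acid, was higher in the lesion zone at 3 days and lower at 28 days. It had 183 UMIs and 35.4 CPM (30.5 to 41.0) against 64 UMIs and 8.79 CPM (6.77 to 11.2) at 3 days, 2.00 (1.59 to 2.45). The 28 days values were 154 UMIs and 21.5 CPM (18.3 to 25.2) against 320 UMIs and 43.4 CPM (38.7 to 48.4), -1.01 (-1.30 to -0.73). Striatum-led bins had its highest level, 170 and 186 CPM over the section, with 32.8% and 43.0% of its UMIs, and both ratios moved when they were left out, to 1.05 (0.57 to 1.55) in the earlier section and 0.06 (-0.34 to 0.47) in the later. With the midline moved 24 columns away from the injured edge, the 3 days ratio was 0.26.

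Within striatum-led bins Rarb was 161 CPM in the zone against 170 CPM opposite at 3 days, -0.07 (-0.40 to 0.23), and 141 against 206 CPM at 28 days, -0.53 (-1.04 to -0.09). In fibroblast-led bins it was 75.3 against 45.4 CPM at 3 days, 0.76 (-0.06 to 1.45), and 65.0 against 24.1 CPM at 28 days, 1.40 (0.33 to 2.61), from 23 and 11 UMIs. The whole injured side showed the same at 28 days, with 136 against 206 CPM in striatum-led bins, -0.59 (-0.84 to -0.35), and 54.5 against 24.1 CPM in fibroblast-led bins, 1.12 (0.22 to 2.26), so neither difference was particular to the lesion zone. The maps most like its own were those of Sh3rf2, Adora2a and Foxp1, with r of 0.46, 0.44 and 0.40. Adora2a and Foxp1 are expressed by projection neurons of the striatum.

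A retinoic acid response element is a direct repeat of a short half-site to which RAR and RXR bind as a pair. The promoters of the RefSeq table (build GRCm38, 250 bases before to 50 bases after each gene start) were searched on both strands for pairs of the half-sites AGGTCA or its variants AGTTCA, then also GGGTCA, and lastly GGTTCA, in the same direction with 1, 2 or 5 bases between them. Of 32851 promoters, 193 (0.588%) held such a pair, and 32 (0.0974%) held one with 5 bases between. Of the 7 genes 6 were in the table, with 11 promoters, and 1 had a match. It was Rarb, with a repeat of 5 bases spacing that began 53 bases before the start. Its half-sites, GGTTCA and AGTTCA, were among the variants searched for, and Rarb is a known target of its own receptors. A match was therefore likely from the outset, and the shares above are no test of it. Outside the 7 genes, Cyp26a1 held a repeat of the same spacing and Dhrs3 held none. The Rarb stretch is shown because of its known role as a target. It lies on the minus strand at chr14:16575477-16575726, entirely before the gene start, and the capitals mark the repeat:
Rarb promoter: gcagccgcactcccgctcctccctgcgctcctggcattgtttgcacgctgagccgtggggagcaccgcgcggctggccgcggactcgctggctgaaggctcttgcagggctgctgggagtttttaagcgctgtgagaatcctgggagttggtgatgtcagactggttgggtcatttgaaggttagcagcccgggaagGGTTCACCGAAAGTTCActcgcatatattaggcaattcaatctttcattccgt
The match is a description of the sequence and no binding was measured.

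**Figure D5:**
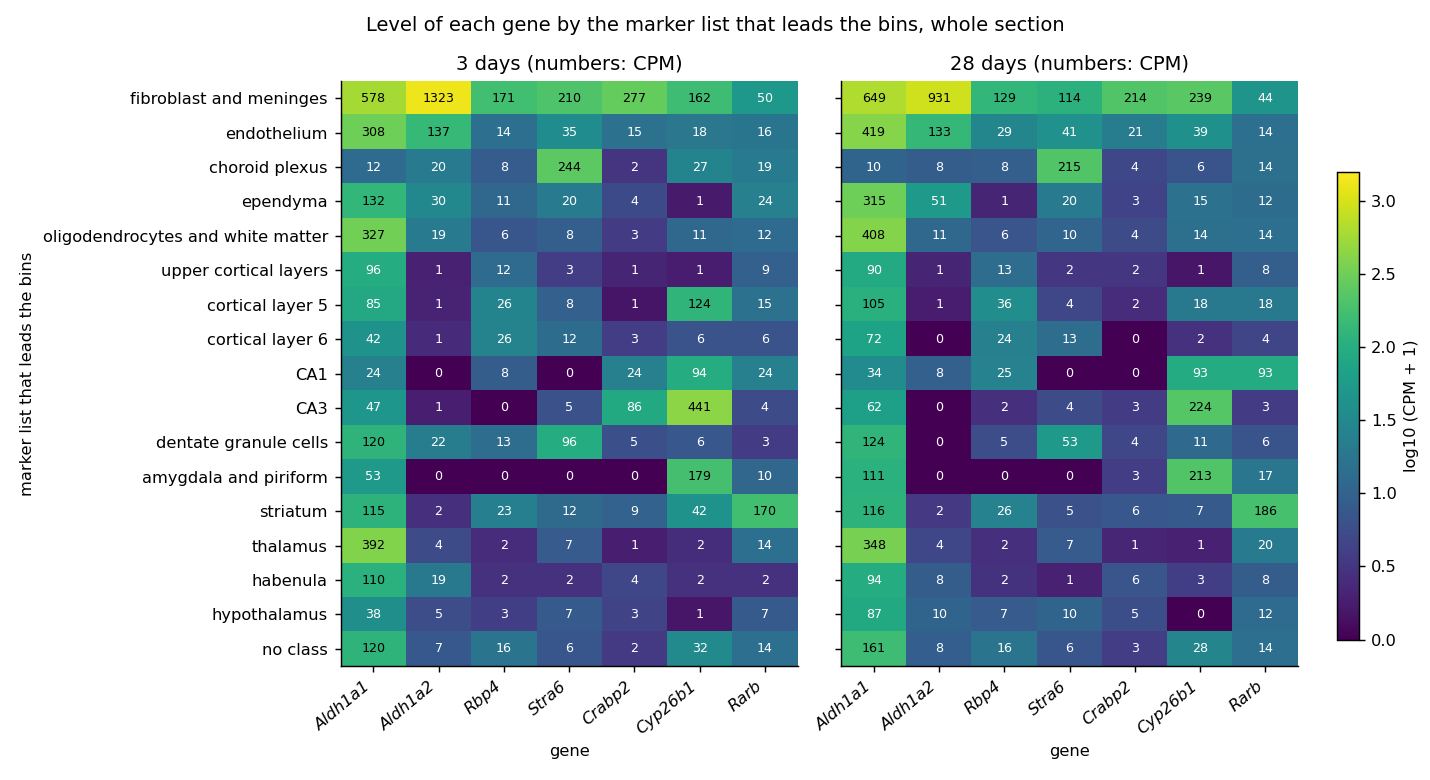
Levels in CPM of the 7 genes (columns) in bins led by each of the 16 marker lists and in bins led by none (rows), over the whole section at 3 and 28 days. Aldh1a2 and Crabp2 are highest in fibroblast-led bins, Cyp26b1 at 3 days in CA3-led bins at 441 CPM and Rarb in striatum-led bins at 170 and 186 CPM.

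Over all genes with at least 20 UMIs in both zones together, 17.0% were at least 2-fold higher in the lesion zone at 3 days and 8.57% at least 2-fold lower, of 13542 genes. At 28 days these shares were 16.4% and 7.82% of 13593. Of the 7 genes, 1 was at least 2-fold higher at 3 days (Rarb) and 3 at least 2-fold lower (Rbp4, Crabp2 and Cyp26b1), and at 28 days 3 were higher (Aldh1a2, Stra6 and Crabp2) and 1 lower (Rarb). These counts are a description, since the members were chosen with the same contrast known. Of the wider list, 42 genes could be compared at each time. At 3 days 15 (35.7%) were higher and 4 (9.52%) lower, with a median log2 ratio of 0.60 against 0.13 over all genes, and at 28 days 14 (33.3%) were higher and 3 (7.14%) lower, with a median of 0.45 against 0.00. These counts hold the 7 genes, and without them 14 of 35 (40%) were higher and 1 (2.86%) lower at 3 days, and 11 (31.4%) higher and 2 (5.71%) lower at 28 days. The genes at least 2-fold higher at both times were 7 in number, Dhrs4, Rlbp1, Stra6l, Fabp5, Cyp1b1, Tgm2 and Rai14. Ttr was the one that was lower at both. The share of all genes past 2-fold at both times was not counted, so these genes are named as a description.

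Among the other synthesis genes, Aldh1a3, the third retinaldehyde dehydrogenase, was higher in the 3 days lesion zone, with 85 UMIs in the zone and 4 in the mirrored area, 16.5 against 0.549 CPM and a log2 difference of 4.74 (3.50 to 6.81). The whole opposite side had 48 UMIs of it at 3 days, and the 28 days zones had 3 and 2. Dhrs3, which turns retinaldehyde back into retinol, was 37.4 against 19.1 CPM at 3 days, 0.97, and 97.4 against 15 CPM at 28 days, 2.69. The retinol dehydrogenase Rdh10 was at 0.34 and 1.14. Dhrs4 was at 1.22 and 1.11, Rdh12 at 1.40 and 0.04, and Bco2, which cleaves carotenoids, at 0.64 and 1.03. In this group, which counts Dhrs3 although it works in the reverse direction, 3 of 12 genes were at least 2-fold higher at 3 days (Aldh1a3, Rdh12 and Dhrs4), beside 17.0% of all genes. At 28 days 5 of 11 were (Aldh1a2, Rdh10, Dhrs3, Dhrs4 and Bco2), beside 16.4%. None was 2-fold lower at either time, beside 8.57% of all genes at 3 days and 7.82% at 28 days. In the storage group Rpe65 was lower at 28 days, with 9 against 24 UMIs and a log2 difference of -1.32.

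The carriers of retinoids inside cells did not share a direction, and Rbp2 and Rbp7 had too few UMIs to compare. Rlbp1, which binds retinaldehyde, was at 1.99 and 1.56, and Fabp5, which can carry retinoic acid to other nuclear receptors, at 1.07 and 1.13. Stra6l, a second receptor for Rbp4, had 48 UMIs against 2 at 3 days and 183 against 1 at 28 days, a log2 difference of 6.98 (5.06 to 12.87). Crabp1, a second retinoic acid carrier, was at 2.85 at 3 days and -0.60 at 28 days. Ttr, the partner of Rbp4 in blood and cerebrospinal fluid and a leading product of the choroid plexus, was at -2.03 and -3.01, but at 2.71 and 0.17 without choroid plexus bins.

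In the breakdown group the other Cyp26 genes had few UMIs or none. Cyp26a1 had 31 UMIs in the whole 3 days section and 22 in the 28 days section. Cyp26c1 had 0 UMIs in both, which allows up to 0.0249 and 0.0364 CPM. Cyp1b1, a cytochrome P450 with retinoids among its substrates, was 25.6 against 4.94 CPM at 3 days, 2.36, and 26.3 against 1.08 CPM at 28 days, 4.52. Cyp26b1 and Cyp1b1 therefore stood on opposite sides of 0 at 3 days.

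The other receptors differed less than Rarb between the zones, apart from Rxrg. Rarg was higher at both times, at 0.89 and 0.86. Rara was at -0.06 and 0.42, Rxra at 0.42 and 0.81 and Rxrb at -0.32 and -0.11. Rxrg, which like Rarb is known from the striatum, was 17.6 against 1.65 CPM at 3 days, 3.37, and 14.3 against 26.7 CPM at 28 days, -0.90. Against the whole opposite side the 3 days value was -0.14 (-0.47 to 0.16). Without striatum-led bins it was at 2.51 and 1.74. None of the 5 receptor partner genes was 2-fold higher or lower at either time. Over all genes 17.0% were higher and 8.57% lower at 3 days, and 16.4% and 7.82% at 28 days. A group of 5 is too small to tell from these shares.

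Of the 7 retinoid-responsive genes compared, 5 reached a 2-fold higher level at 3 days, beside 17.0% of all genes, and 3 did at 28 days, beside 16.4%. Tgm2, a transglutaminase, was 134 against 24.9 CPM at 3 days, 2.43, and 70.6 against 9.21 CPM at 28 days, 2.93. Rai14 was at 1.88 and 2.08. Rarres1 was at 1.45 and 0.91, and Rarres2, the precursor of the attractant chemerin, at 0.66 and 1.78. The transcription factor Meis1 was at 1.66 and 0.65, and Meis2, high in the striatum, at 2.00 and -0.81, or 1.37 and -0.16 without striatum-led bins. Many of these genes have inputs other than retinoic acid. Microglia and macrophage markers, at 1.69 and 3.80, and mural cell markers, at 2.03 and 0.64, were higher in the same zone. The zone was drawn where phagocyte genes were high, so the level of the microglia and macrophage list is no separate observation. The part of these cell types in the ratios was not tested.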

How the data were processed

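Visium HD libraries were made from 1 fixed, paraffin-embedded brain section at 3 days and 1 at 28 days after CCI. The submitters' processing notes name Space Ranger and mm10, and the file headers give Space Ranger 4.0.1. The values analysed are the deposited raw UMI counts per gene and 16 µm bin, which the authors made from a probe set with no normalization. Probes count only the targeted stretch of a transcript, and summing by area keeps depth: bins had a median of 851 UMIs at 3 days and 610 at 28 days. The data were not split by cell.

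Bins under 100 UMIs (1.93% and 2.15%) were left out. The midline was set at column 130 at 3 days and 240 at 28 days, which is the median column of Gbx2, a thalamic gene. A symmetry axis fitted to the tissue lay at column 154 at 3 days and at column 240 at 28 days. Bins were summed in tiles of 4 by 4 (64 µm). The lesion zone consisted of patches of at least 25 tiles in which the 6 phagocyte genes, smoothed in windows of 5 by 5, exceeded percentile 99 of their share on the other side (571 of 2509 tiles of the injured side at 3 days, 903 of 3259 at 28 days). These 6 genes are not reported as results. Of the zone bins, 92.3% and 86.6% had a mirrored bin. Ratios used summed UMIs scaled to CPM, a pseudocount of 0.5 UMI and a minimum of 20 UMIs over both zones. Ratios have exact conditional binomial and levels exact Poisson 95% intervals. Where an area had 0 UMIs, the bound was set at 3 counts over that area. Bin types came from 16 marker lists, as the mean enrichment in a window of 3 by 3 bins. Map likeness was the Pearson r of log2 CPM over tiles of 16 by 16 bins among 11576 genes with at least 500 UMIs in each section, with depth and anatomy shared by all tiles of a section, and is a description.

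The genes named were the 7 members, the wider-list genes at least 2-fold higher or lower, every measured breakdown and receptor gene, and the 3 genes most like each member, apart from some that are not reported here and were left out of the list counts. Dhrs3 and Rdh10 at 3 days and the values within bin types are given beside these. The members and all lists were chosen with earlier results of these data known. The bin types left out of the zones were chosen after seeing the data. Python 3.11.15, numpy 2.4.6, scipy 1.17.1, pyarrow 21.0.0, matplotlib 3.10.9, R 4.3.3 and edgeR 4.0.16 (TMM scaling) were used, and the ratio script was tested on simulated data. Cx3cr1 and Xist were not analysed here.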

Additional observations from a re-analysis of the deposited data

Results flagged for a closer look

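The log2 ratio of lesion over mirrored area had opposite signs at the 2 times, with both intervals clear of 0, for 5 genes of the wider list, and the difference between the times was not tested, since each time had 1 section. As 28 days minus 3 days it was 2.35 for Crabp2, -3.01 for Rarb, -4.27 for Rxrg, -2.81 for Meis2 and -0.56 for Ncoa2, a receptor coactivator. The values beside these differences are the bins in each zone. Striatum-led bins were 605 in the lesion zone and 0 in the mirrored area at 3 days and 412 and 1125 at 28 days, and without them the signs no longer opposed for Rarb (1.05 and 0.06) or Rxrg (2.51 and 1.74). For Crabp2 they no longer opposed without CA3-led bins, where the 3 days ratio was 0.19. Meis2 kept opposite signs without striatum-led bins, at 1.37 and -0.16, with an interval from -0.33 to 0.02 at 28 days. Ncoa2 was 0.36 and -0.20.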

How the results depend on the processing

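Over 13 other settings, Cyp26b1 was lower in the lesion zone at 3 days in all 13 (-5.25 to -1.87) and had the sign of the reported value in 11 of 13 at 28 days (-0.68 to 1.96). These counts include settings that could not change the ratio of a gene. The largest patch alone held the same bins as the zone, and the minimum of UMIs does not enter the ratio. At 3 days the symmetry axis fitted to the tissue lay at column 154, close to the midline moved 24 columns higher, so these settings overlap. The log2 ratios of Cyp26b1 at 3 days were -1.87 with the zone drawn at the 95th percentile, -2.60 with a symmetry axis fitted to the tissue, -3.70 and -2.86 with the midline moved 24 columns lower and higher, and -3.18 against the whole opposite side. At 28 days they were 1.61 and 1.96 with the moved midlines and -0.68 against the whole opposite side. Without CA3-led bins, added after seeing the data, they were -2.37 and 2.02. At 28 days Aldh1a1 (0.59 to 1.80), Aldh1a2 (1.37 to 4.02), Stra6 (0.27 to 1.39) and Rarb (-2.07 to -0.33) kept their sign in 13 of 13, and at 3 days Rarb did (0.24 to 2.01), while Aldh1a1, near 0, did in 6 of 13.

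Signs turned at 3 days for Rbp4 (0.50), Crabp2 (0.29) and Ttr (1.69) with the 95th percentile, Rarres2 (-0.66) with a stricter percentile, Crabp2 (0.84), Ttr (3.01) and Ncoa3 (-0.02) with the fitted axis, Stra6 (-0.18) and Rxra (-0.03) with the lower midline, Crabp2 (0.67) and Ttr (2.99) with the higher midline, and Crabp2 (0.16) and Rxrg (-0.14) against the whole opposite side. Per bin in place of per UMI, the median of all genes moved from 0.13 to -0.48, and Rdh10 (-0.27), Rdh11 (-0.25), Aldh1a2 (-0.06), Rxra (-0.19), Ncoa2 (-0.25) and Ncoa3 (-0.31) were below 0. Relative to that median they stayed above it. With TMM scaling the median was -0.03. At 28 days the signs of Ttr (2.61 with the 95th percentile, 1.09 with the fitted axis), Meis2 (0.04, lower midline) and Crabp2 (-0.15, whole opposite side) turned, and Rbp4, reported as -0.10, was 0.28 with the 95th percentile. With bin types left out, signs turned for Crabp2 (0.19, CA3), Stra6 (-0.68, fibroblast) and Ttr (2.71, choroid plexus) at 3 days and for Rarb (0.06), Rbp4 (0.56) and Rxrg (1.74, all striatum) and Ttr (0.17, choroid plexus) at 28 days. For these the bins left out differ by construction, and for the others the cause was not tested. Of 909 ratios of the other pathway genes under these settings, 759 stayed within their reported interval, 135 left it and 15 with an interval clear of 0 changed sign. A sign change of a ratio whose interval held 0 was not counted among the 15, and such changes are not all listed above.

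The number of genes at least 2-fold higher at 3 days, 2305, was 1215 per bin and 4238 with no minimum of UMIs, and the number lower, 1161, was 3076 and 2201. At 28 days the number higher, 2235, was 4380 with no minimum, and the number lower, 1063, was 601 with the 95th percentile, 1597 against the whole opposite side, 1796 per bin and 1747 with no minimum. With tiles of 8 by 8 bins, 3 of the 3 genes most like Crabp2 were shared, 2 for Aldh1a1, Rbp4 and Rarb, 1 for Aldh1a2 and Stra6 and 0 for Cyp26b1. No paired analysis was possible because each group had 1 section. The 3 days section lacks the outer injured hemisphere, bins mix cells, and Crabp2, Rbp4 and Cyp26b1 had under 130 UMIs in the lesion zone, so intervals are wide and the spread between animals is unknown.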
